A study of Mus musculus with 16 samples.

Results

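The smooth muscle type contractile genes encode an actin, a myosin light chain and the actin-binding proteins with which mesenchymal cells build tension. The 9 genes described here (Tagln, Acta2, Tpm1, Tpm2, Myl9, Cald1, Cnn1, Palld and Actn1) were taken by name out of the 32285 genes in the matrices, and each of them had at least 1 UMI, the count of 1 captured RNA molecule, in every sample. They were measured by droplet single-cell RNA sequencing in primary bone marrow stromal cells of 12-week-old mice after 21 days in culture with 10 mM β-glycerophosphate and ascorbic acid, a medium that leads such cells toward osteoblasts. Mice of all 4 genotypes carried the floxed Fgf23 alleles (Fgf23 fl/fl). WT cells had intact Dmp1 and no Cre. Fgf23cKO cells had intact Dmp1 and carried a Cre recombinase under the Dmp1 promoter, which is active in mature osteoblasts and osteocytes, so that Fgf23 is removed in those cells and not throughout the culture. Dmp1KO cells lacked Dmp1 in every cell and carried no Cre, and Dmp1KOFgf23cKO cells lacked Dmp1 and carried the Cre. The comparisons ask how loss of DMP1, of FGF23 from the osteoblast lineage, or of both altered the cells of these cultures.

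Samples numbered 1 to 3 of each genotype were individual cultures marked with their own oligonucleotide tag, and the sample numbered 4 held untagged cells of the same pool. Only the 11 tagged cultures entered tests (3 WT, 3 Fgf23cKO, 2 Dmp1KO and 3 Dmp1KOFgf23cKO), since Dmp1KO replicate 1 was not analysed here and untagged cells are no further culture. All cells of a genotype went through 1 droplet reaction, so that genotype and reaction cannot be told apart in any comparison below. Cells had been isolated from 3 mice of each genotype and kept as individual cultures. The labels do not tie a culture to a mouse, and the p-values measure the spread between cultures.

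As background, actin filaments slide along myosin when the regulatory light chain Myl9 is phosphorylated. Acta2 encodes smooth muscle α-actin, Tpm1 and Tpm2 encode tropomyosins that lie along the filament, and Cald1 (caldesmon) and Cnn1 (calponin) restrain the actin and myosin interaction. Tagln encodes transgelin, an actin-bundling protein, and Palld (palladin) and Actn1 (α-actinin) tie filaments together in stress fibers and at adhesions. High levels of this set mark smooth muscle cells, pericytes and myofibroblasts, and Acta2 also marks perivascular cells of the marrow that can give rise to osteoblasts. Serum response factor, with its cofactors of the myocardin family, drives many of these genes through the CArG box, TEAD factors with YAP and TAZ act through the motif CATTCC, and TGF-β is a known inducer.

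In the mouse genome (build GRCm38) the genes lie apart. Tagln is at chr9:45929619-45936058 (minus strand), Acta2 at chr19:34241090-34255590 (minus), Tpm1 at chr9:67022590-67049406 (minus), Tpm2 at chr4:43514711-43523765 (minus) and Myl9 at chr2:156775420-156781658 (plus). Cald1 is at chr6:34598500-34775473 (plus), Cnn1 at chr9:22099216-22109630 (plus), Palld at chr8:61511433-61902690 (minus) and Actn1 at chr12:80167547-80260371 (minus). Since the reads come from 3′ ends, the last 500 bases of each transcript were compared with all other transcripts: 8 members shared no stretch of 60 bases with another gene, and Actn1 shared 0.244% of such stretches with its paralog Actn4. The 3′ end of Tagln overlaps Pcsk7 and Gm48529, both on the opposite strand.

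Promoters of 4 of the 5 members that hold a full motif are shown, as the 250 bases before the RefSeq start (build GRCm38.p6), written 5′ to 3′ along the gene's strand. Capitals mark a CArG box in Myl9 and, in the other 3, CATTCC read on either strand (GGAATG as printed).
Acta2, chr19:34255374-34255623, minus strand: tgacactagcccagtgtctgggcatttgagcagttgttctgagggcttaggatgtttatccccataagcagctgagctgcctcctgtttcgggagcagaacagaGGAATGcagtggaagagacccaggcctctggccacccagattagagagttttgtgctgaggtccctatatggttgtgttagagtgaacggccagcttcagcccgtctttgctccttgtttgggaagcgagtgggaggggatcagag
Tpm1, chr9:67049214-67049463, minus strand: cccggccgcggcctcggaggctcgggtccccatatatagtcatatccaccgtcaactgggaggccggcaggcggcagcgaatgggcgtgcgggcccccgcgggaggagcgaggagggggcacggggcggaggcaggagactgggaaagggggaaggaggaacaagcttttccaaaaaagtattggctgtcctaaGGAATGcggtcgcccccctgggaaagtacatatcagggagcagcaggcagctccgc
Myl9, chr2:156775214-156775463, plus strand: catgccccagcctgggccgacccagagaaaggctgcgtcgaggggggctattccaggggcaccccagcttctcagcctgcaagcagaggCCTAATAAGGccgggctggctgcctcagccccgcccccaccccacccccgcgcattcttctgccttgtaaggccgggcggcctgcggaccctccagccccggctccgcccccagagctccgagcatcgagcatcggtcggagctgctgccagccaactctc
Cald1, chr6:34598254-34598503, plus strand: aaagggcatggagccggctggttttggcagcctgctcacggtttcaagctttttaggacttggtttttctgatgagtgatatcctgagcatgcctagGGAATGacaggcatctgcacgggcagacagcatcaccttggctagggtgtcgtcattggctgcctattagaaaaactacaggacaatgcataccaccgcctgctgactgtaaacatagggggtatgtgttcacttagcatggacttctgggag
RefSeq promoters of 300 bases (250 before and 50 after the start) matched 8 of the 9 members, with 11 promoters in all. Within these windows, a CArG box without mismatch was found in 1 of the 11 promoters, that of Myl9, and in 1.63% of all 32851 promoters. With exactly 1 mismatch, the promoters of Acta2 and Tpm1 held 2 matches each. Myl9 and 1 promoter each of Cald1 and Palld held 1 match. Such a match was found in 19.9% of all promoters, so the strict count does not show that the other promoters lack a CArG-like element. CATTCC on either strand was found in 4 of the 11 promoters, 1 each of Acta2, Tpm1, Cald1 and Palld, and in 14.7% of all promoters. Neither motif was found in the windows of Tpm2, Cnn1 and Actn1. A match is a description of the letters and not a site shown to be used.

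The 15 samples held 17793 cells, with 417 to 2825 cells and a median of 1219 to 34988 UMIs per cell in each, and 14577 of the cells were tagged. In each tagged culture 97.3% to 100% of the cells were led by the same tag. Barcodes were shared across samples in 35 cases, never within a genotype. The members were described in 4 classes of cells, named from their markers. Osteoprogenitor-like cells (704 cells, 18 to 65 in each tagged culture) had 7 of 13 osteoprogenitor markers, among them Grem1, Mgp and Prrx1, at over 2 times their level in the other cells. By the same measure they also had 6 of 7 adipocyte markers, 6 of 11 smooth muscle or pericyte markers and 5 of 6 T or NK cell markers. These cells were shallow, with a median of 2826 UMIs. Their leading gene by fold was the adipocyte gene Cfd, with Grem1 and Mgp among the first 10. In the tagged cultures, the pericyte markers Rgs5, Kcnj8, Abcc9 and Higd1b had 0 UMIs in the sums of these cells. The whole smooth muscle or pericyte list summed there to 29.6 to 201 CPM (counts per 1000000 UMIs of the sum). Kcnj8 is still among the 6 markers above, which were counted with the 331 untagged cells of the class. The T or NK cell list summed to 0 to 8.47 CPM in WT and 0 to 50.4 in Fgf23cKO. It summed to 45.2 to 178 CPM in Dmp1KO and 24.9 to 46.8 in Dmp1KOFgf23cKO. Fibroblastic stroma-like cells (425 cells, 14 to 43 in each tagged culture, median 52112 UMIs) had 11 of 12 markers of their own list, 12 of 13 osteoprogenitor markers and 9 of 11 smooth muscle or pericyte markers. Osteoblast/osteocyte-like cells (535 cells, median 1862 UMIs) had 14 of 14, and macrophage-like cells (7916 cells, median 14585 UMIs) had 6 of 14. In osteoblast/osteocyte-like cells the deleted gene Dmp1 stood at 726, 1058 and 1299 CPM in WT, 542 CPM in the Fgf23cKO culture with 10 or more such cells and 38.1, 15.2 and 25.4 CPM in Dmp1KOFgf23cKO, while the 2 Dmp1KO cultures held only 2 and 8 such cells with 0 and 3 Dmp1 UMIs. Fgf23 had 0 UMIs in these sums, so its deletion could not be checked.

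Across the classes, the contractile genes were highest in osteoprogenitor-like and fibroblastic stroma-like cells. The 9 genes together stood at a median of 13185 CPM (7315 to 20616 over 11 cultures) in osteoprogenitor-like cells, 8958 CPM (6090 to 11706) in fibroblastic stroma-like cells, 2134 CPM (1552 to 2651, 7 cultures) in osteoblast/osteocyte-like cells and 227 CPM (188 to 279) in macrophage-like cells. The ranges of the first 2 classes overlapped, and those of the other 2 lay below them and apart from each other. Because fibroblastic stroma-like cells were deep, they held 58.2% of all UMIs of the members, against 12.9% in osteoprogenitor-like, 6.68% in osteoblast/osteocyte-like and 8.38% in macrophage-like cells. The members were among the genes used to cluster the cells, so levels between classes are a description and were not tested.

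**Figure D1:**
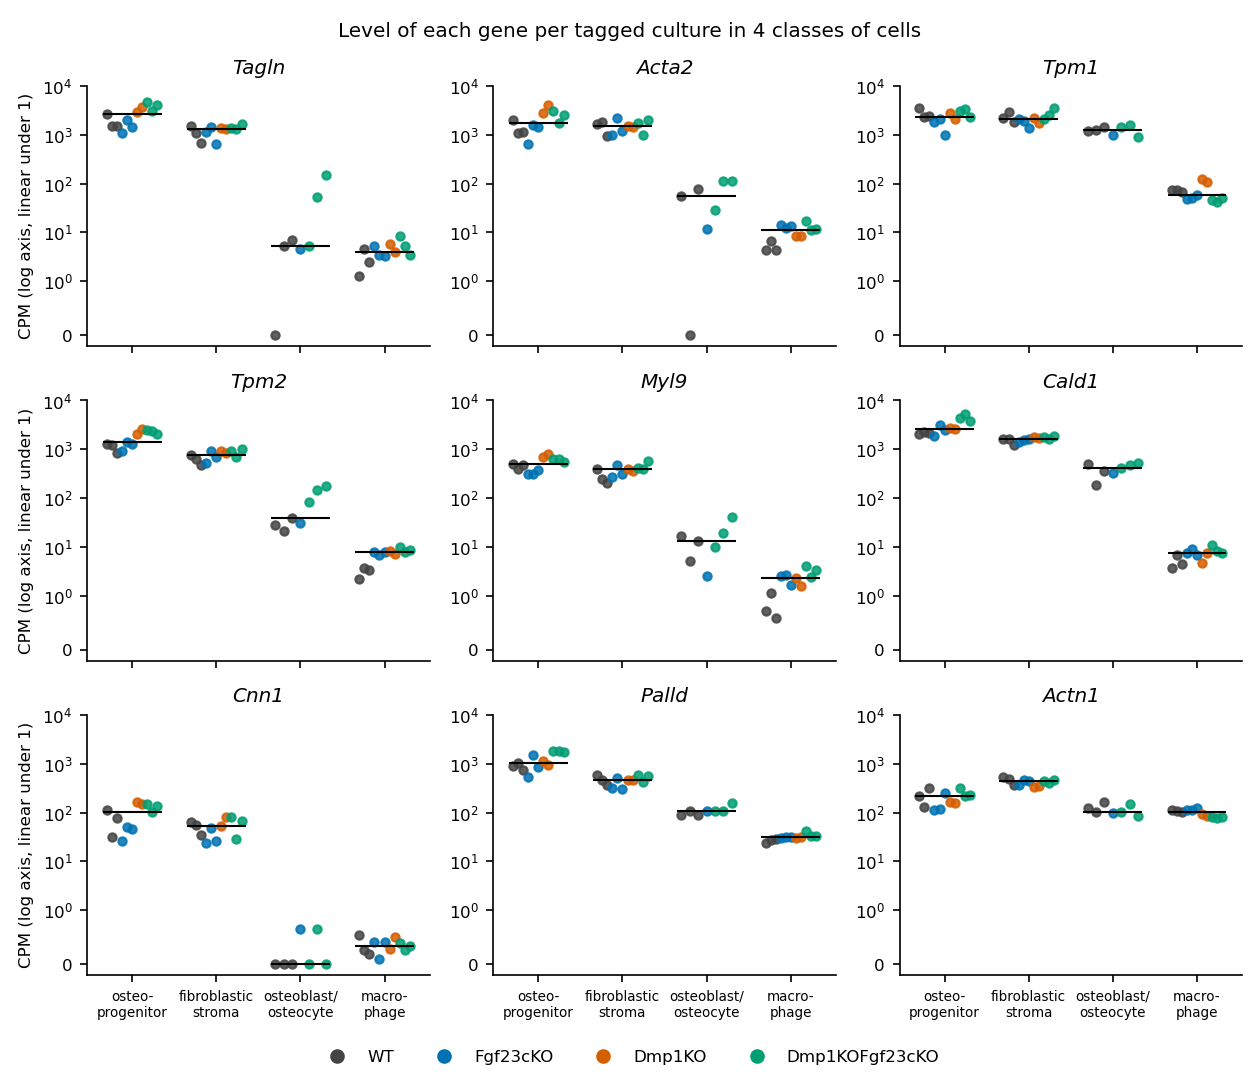
Level of each member in CPM (log axis, linear under 1) in the 4 classes of cells; each point is 1 tagged culture with at least 10 cells of the class and the line is the median. Relative to osteoprogenitor-like cells, Tpm1 and Actn1 keep more of their level in osteoblast/osteocyte-like cells than the other members. In macrophage-like cells Actn1 keeps the most, at a median ratio of 1.90, followed by Palld at 38.1 and Tpm1 at 38.5.

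Within the same culture, the actin-binding genes Tagln, Tpm2, Cald1 and Palld were higher in osteoprogenitor-like than in fibroblastic stroma-like cells in 10, 11, 11 and 11 of 11 cultures, with median ratios of 2.23, 1.96, 1.58 and 2.43. The actin gene Acta2 was close in both, with a median ratio of 1.21 and a higher level in 8 of 11 cultures, and Tpm1 likewise at 1.22 and 7 of 11. Actn1 ran the other way. Its median level was 217 CPM (113 to 314) in osteoprogenitor-like and 433 CPM (333 to 522) in fibroblastic stroma-like cells, with a ratio of 0.488 and a lower level in osteoprogenitor-like cells of all 11 cultures. Toward the osteoblast lineage the members parted further. Tagln had a median of 2691 CPM (1067 to 4716) in osteoprogenitor-like cells but 5.23 CPM (0 to 150.3) in osteoblast/osteocyte-like cells. Cnn1 had 0 UMIs in all 3 WT sums of osteoblast/osteocyte-like cells, where 3 UMIs would stand at 2.29 to 7.76 CPM. Tpm1, the more widely expressed of the tropomyosin genes here, held a median of 1281 CPM (884 to 1583) there against 2329 CPM (1007 to 3477) in osteoprogenitor-like cells, a ratio of 2.10 within a culture, while the ratios were 30.2 for Tpm2, 36.0 for Myl9, 7.19 for Cald1, 10.3 for Palld and 1.73 for Actn1, each in 7 of 7 cultures.

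Per cell, RNA of the members was concentrated in a minority of osteoprogenitor-like cells. The 10% of cells with the most Tagln UMIs held 64.8% of all Tagln UMIs of the class, and the shares were 68.6% for Acta2, 54.4% for Tpm1, 54.0% for Tpm2, 49.5% for Cald1 and 81.3% for Cnn1. For Tagln, the 10th percentile, the median and the 90th percentile of the level per cell were 0, 1124 and 8381 CPM in osteoprogenitor-like cells and 0, 242 and 3190 CPM in fibroblastic stroma-like cells. Cald1 was spread more evenly in fibroblastic stroma-like cells, where the corresponding levels were 651, 1465 and 2668 CPM and the top 10% of cells held 33.5% of its UMIs. These shares follow cell depth as well as expression, since deep cells hold more UMIs of every gene.

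To compare cells at the same depth, each cell was thinned to 1300 UMIs and shallower cells were left out, which kept 540 of 704 osteoprogenitor-like, 425 of 425 fibroblastic stroma-like, 306 of 535 osteoblast/osteocyte-like and 7909 of 7916 macrophage-like cells. Tagln was then detected in 67.2% of osteoprogenitor-like cells, 41.6% of fibroblastic stroma-like cells, 2.61% of osteoblast/osteocyte-like cells and 0.430% of macrophage-like cells, against 71.6% and 73.4% of the first 2 classes at full depth. Acta2 was detected in 57.8%, 47.3%, 5.23% and 1.06% of cells, respectively, and Cald1 in 81.9%, 79.3%, 27.8% and 0.948%. Tpm1 was detected in 80.9%, 82.8%, 61.8% and 7.88% of cells, the widest of the members in fibroblastic stroma-like and osteoblast/osteocyte-like cells, while Actn1, in 10.7%, was the widest in macrophage-like cells. A thinned osteoprogenitor-like cell held a median of 5 of the 9 members, with 5 or more in 60.2% of cells, none in 2.22% and all 9 in 1.11%. The medians were 4 in fibroblastic stroma-like, 1 in osteoblast/osteocyte-like and 0 in macrophage-like cells, where 77.1% of cells held none.

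The members also varied together from cell to cell within a culture. Over the 36 pairs, the median Pearson r of log counts per 10000 was 0.256 in osteoprogenitor-like cells (9 cultures with 20 or more cells), and 34 of 36 pairs were above 0. A first group of genes stood out, formed by Tagln, Acta2, Myl9 and Tpm2: r was 0.68 for Tagln with Myl9 (0.45 to 0.83 over cultures), 0.65 for Tagln with Acta2 (0.56 to 0.82) and 0.62 for Tagln with Tpm2. Cald1 and Palld formed another pair at 0.59 (0.37 to 0.78), and they had little relation to Acta2, at -0.03 and 0.02. The same pairs led after thinning, with 0.60 for Tagln with Acta2 and 0.49 for Cald1 with Palld. In fibroblastic stroma-like cells the median pair was at 0.550, with 0.90 for Acta2 with Myl9, and at 0.225 once cells were thinned, where Tagln with Acta2 still stood at 0.74. In macrophage-like cells the median pair was at 0.05 at full depth and -0.01 thinned. Cells of a culture share its library and depth, and these values are descriptions without a test.

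**Figure D2:**
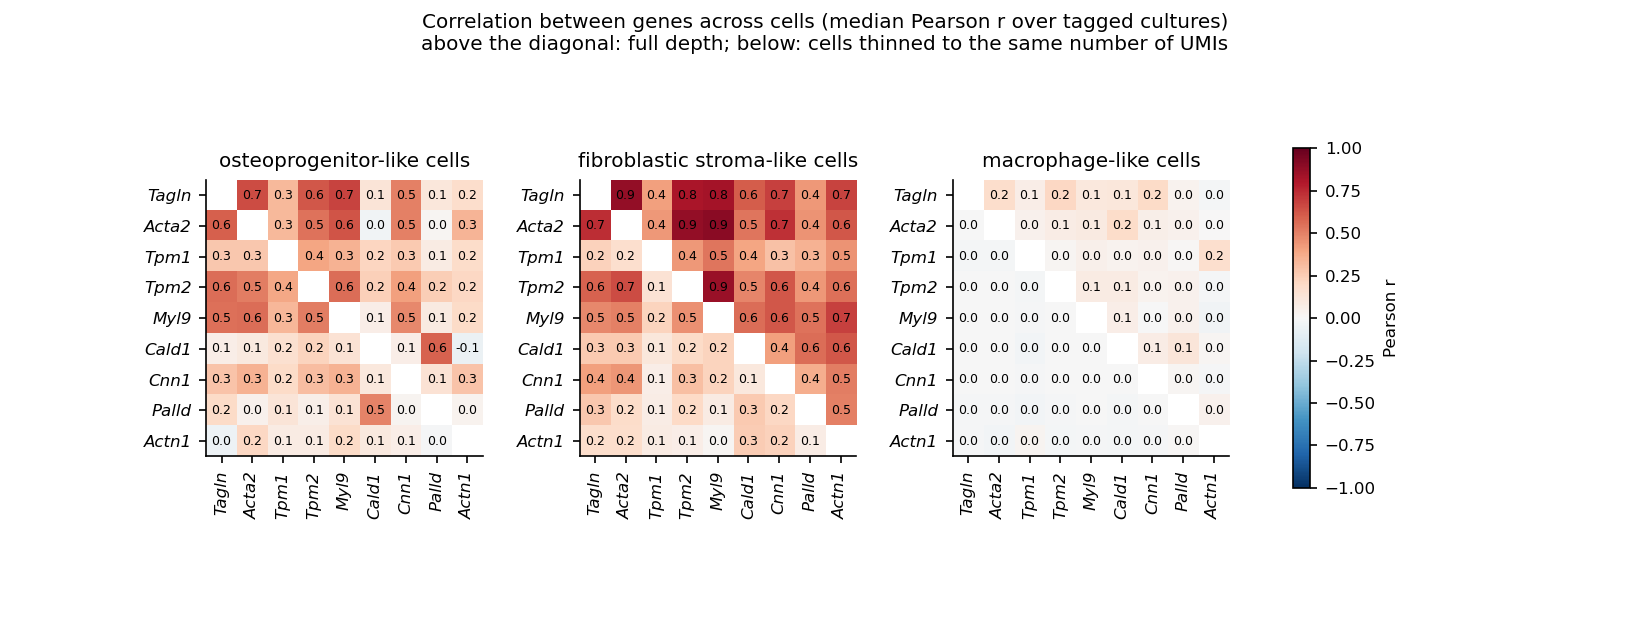
Pearson r between each pair of members across the cells of a culture, as the median over cultures, in 3 classes of cells; the upper right triangle is at full depth and the lower left triangle has each cell thinned to 1300 UMIs. Of the pairs within osteoprogenitor-like cells, those among Tagln, Acta2, Myl9 and Tpm2 and the pair Cald1 and Palld are highest. The highest pair at full depth is at 0.68 in osteoprogenitor-like and 0.90 in fibroblastic stroma-like cells.

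Over the 29 sums of culture and stromal class, the level of each member was compared with the mean of the other 8 on the log2 scale. Myl9, Tpm2, Tagln, Cald1, Cnn1, Acta2 and Palld followed it with r between 0.92 and 0.98, and Tpm1 and Actn1 less closely, at 0.72 and 0.58. These values rest largely on the gap between classes. Within the 11 osteoprogenitor-like sums alone, r was highest for Tagln (0.97) and Cnn1 (0.90) and lowest for Tpm1 (0.50) and Actn1 (0.38). The 10 genes outside the members with the most similar pattern, of 6226 genes, were Mxra7, Csrp2, S100b, Lmod1, Trnp1, Fhl1, Mgp, Csrp1, Actg2 and Hspb1, with r from 0.94 to 0.97. Csrp1, a cysteine-rich LIM protein, also followed the members inside each class (r of 0.85, 0.77 and 0.74), and Actg2, the γ-actin of smooth muscle, at 0.63, 0.84 and 0.89. Mgp, a matrix protein that inhibits mineralization, had an r of 0.49 within osteoprogenitor-like, -0.54 within fibroblastic stroma-like and 0.35 within osteoblast/osteocyte-like cells.

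In osteoprogenitor-like cells, several contractile genes were higher in cultures without Dmp1, by an amount that depended on the scaling of the sums and on a few deep cells. In Dmp1KO compared with WT, 6 of the 9 members were higher and 0 lower (Acta2, Tpm2, Cnn1, Tagln, Myl9 and Cald1) at an adjusted p under 0.1 in edgeR's quasi-likelihood test with Benjamini-Hochberg adjustment over 4845 genes, where 12.9% of all genes passed and 8.54% were higher. The median log2 fold change was 1.06 over the members and -0.12 over all genes tested. In Dmp1KOFgf23cKO compared with WT, 8 members were higher, all but Actn1, beside 33.9% of all genes passing and 16.7% higher, with medians of 1.34 over the members and -0.12 over all genes. In Fgf23cKO compared with WT, 0 of 9 passed, beside 17.2% of all genes. The 3 comparisons share the WT cultures. These fold changes use TMM factors, which centre on the bulk of the genes, and are not ratios of the CPM levels given below. With the sums scaled by total UMIs alone, as the CPM levels are, a choice made after seeing the data, the median of all genes moved from -0.12 to -0.51 in Dmp1KO and from -0.12 to -0.74 in Dmp1KOFgf23cKO. On that scale 3 members were higher in Dmp1KO (Acta2 at 1.21, Tpm2 at 1.03 and Myl9 at 0.65), beside 13.3% of all genes passing, and 4 in Dmp1KOFgf23cKO (Tagln at 0.98, Tpm2 at 0.99, Cald1 at 0.98 and Palld at 0.94), beside 43.3%. Of all genes that passed, the share that was higher fell from 66.1% to 31.9% in Dmp1KO and from 49.4% to 17.1% in Dmp1KOFgf23cKO. The counts on the TMM scale were also 3 and 5 without cells rich in macrophage or adipocyte markers, beside 11.4% and 19.4% of all genes. Without those rich in macrophage markers alone they were 4 and 7. The share of all genes is not given for that refit, so 4 and 7 are no result about the members against other genes.

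**Figure D3:**
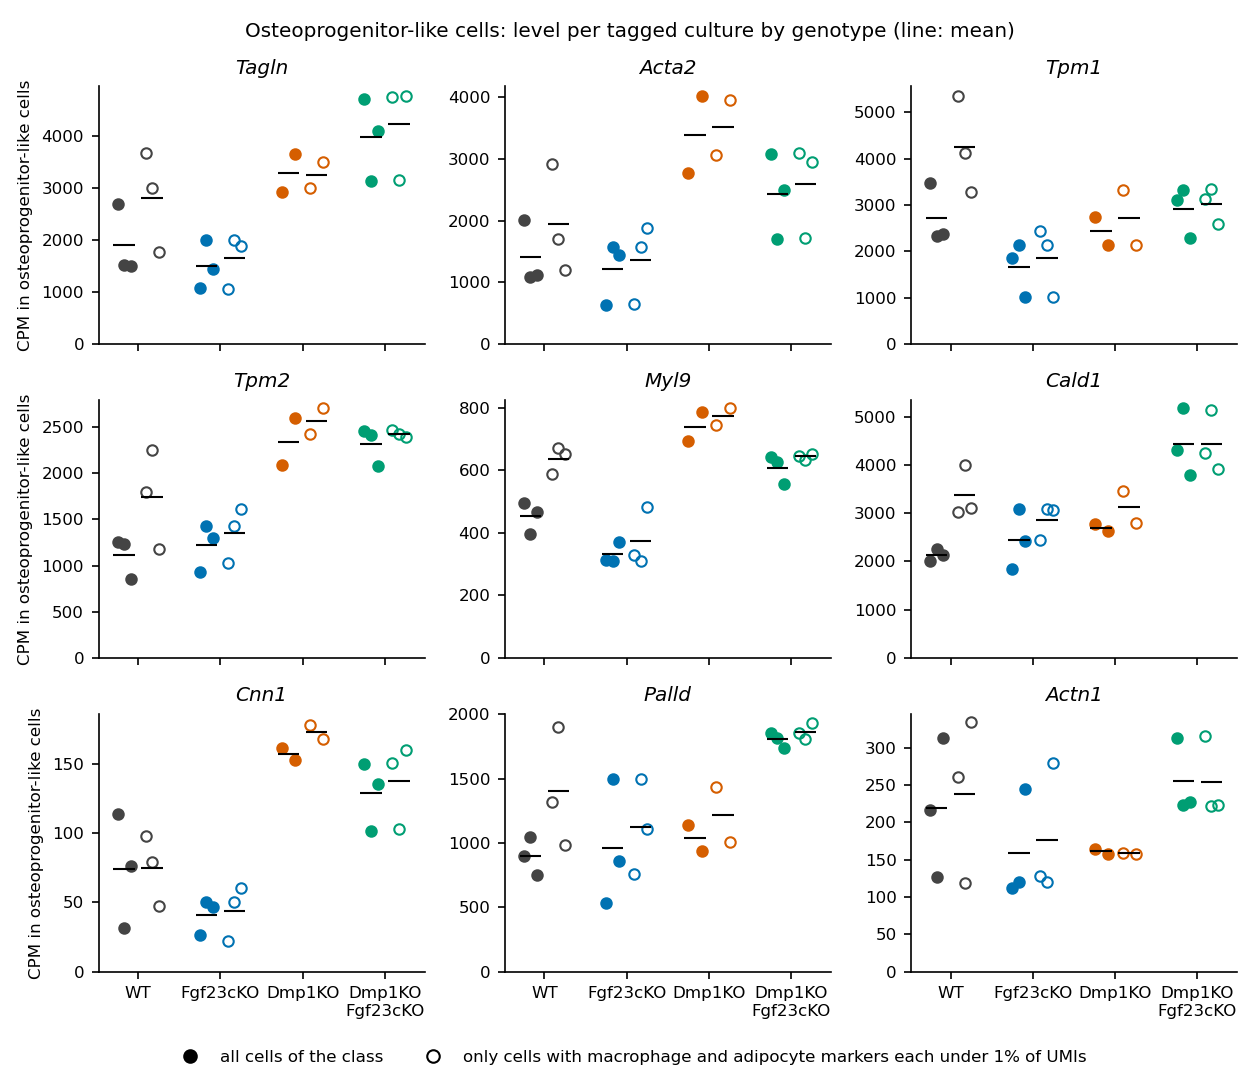
Level (CPM) of each member in osteoprogenitor-like cells of the 11 tagged cultures by genotype; filled points use all cells, open points only cells whose macrophage and adipocyte markers each take under 1% of their UMIs, and lines are means. For Tagln, Acta2 and Tpm2 the filled Dmp1KO points lie above all filled WT points, and several WT points move up when the marked cells are left out.

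Among the filament genes, Acta2 stood at 2018, 1093 and 1119 CPM in the 3 WT cultures, 637, 1565 and 1451 in Fgf23cKO, 2774 and 4016 in Dmp1KO and 3076, 1707 and 2504 in Dmp1KOFgf23cKO. The Dmp1KO levels lay above those of all WT cultures, while the Dmp1KOFgf23cKO and WT ranges overlapped. Its log2 fold change was 1.64 ± 0.38 (adjusted p = 0.0135) in Dmp1KO and 1.34 ± 0.35 (adjusted p = 0.0127) in Dmp1KOFgf23cKO. Tpm2 stood at 1252, 1236 and 856 CPM in the 3 WT cultures, 930.3, 1425 and 1299 in Fgf23cKO, 2089 and 2594 in Dmp1KO and 2457, 2418 and 2077 in Dmp1KOFgf23cKO, so that all 5 cultures without Dmp1 lay above all 6 with it, and its log2 fold changes were 1.45 ± 0.25 (adjusted p = 0.0019) and 1.62 ± 0.23 (adjusted p = 0.000173). Tpm1 showed another pattern, at 3477, 2329 and 2381 CPM in the 3 WT cultures, 1849, 2127 and 1007 in Fgf23cKO, 2741 and 2142 in Dmp1KO and 3105, 3329 and 2290.2 in Dmp1KOFgf23cKO, and its WT range overlapped both genotypes without Dmp1. Its log2 fold change, on the TMM scale, was 0.18 ± 0.29 (adjusted p = 0.731) in Dmp1KO and 0.64 ± 0.26 (adjusted p = 0.0817) in Dmp1KOFgf23cKO, and the latter was 0.01 with scaling by total UMIs alone, -0.63 with thinned cells and -0.02 without cells of high macrophage or adipocyte markers.

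The myosin light chain gene Myl9 stood at 497, 396 and 466 CPM in the 3 WT cultures, 314, 311 and 372 in Fgf23cKO, 695 and 786 in Dmp1KO and 642, 628 and 556 in Dmp1KOFgf23cKO, with all cultures without Dmp1 above all those with it (log2 fold changes of 1.06 ± 0.24 (adjusted p = 0.0113) and 0.97 ± 0.22 (adjusted p = 0.00571)). Of the genes that restrain actomyosin, Cald1 stood at 2018, 2266 and 2135 CPM in the 3 WT cultures, 1846, 3080 and 2432 in Fgf23cKO, 2771 and 2625 in Dmp1KO and 4299, 5180 and 3800.4 in Dmp1KOFgf23cKO. It was highest in Dmp1KOFgf23cKO, where its log2 fold change of 1.60 ± 0.21 (adjusted p = 7.85e-05) exceeded that in Dmp1KO, 0.70 ± 0.23 (adjusted p = 0.0684). The difference between these 2 genotypes was itself 0.91 ± 0.23 (adjusted p = 0.0471), and Cald1 was the only member of the 9 to pass there, beside 4.29% of all genes. Cnn1 was low, at 114, 31.7 and 76.3 CPM in the 3 WT cultures, 26.7, 50.2 and 46.5 in Fgf23cKO, 161 and 153 in Dmp1KO and 149.6, 102 and 135 in Dmp1KOFgf23cKO, and rested on 2 to 54 UMIs in a culture, with log2 fold changes of 1.36 ± 0.43 (adjusted p = 0.0644) and 1.28 ± 0.40 (adjusted p = 0.0328).

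Of the genes that bundle and anchor filaments, Tagln stood at 2691, 1521 and 1499.8 CPM in the 3 WT cultures, 1067, 2007 and 1447 in Fgf23cKO, 2916 and 3657 in Dmp1KO and 4716, 3131 and 4085 in Dmp1KOFgf23cKO. All 5 cultures without Dmp1 exceeded all 6 with it, and the log2 fold changes were 1.15 ± 0.31 (adjusted p = 0.0336) in Dmp1KO and 1.62 ± 0.29 (adjusted p = 0.00102) in Dmp1KOFgf23cKO. Palld stood at 900.4, 1046 and 754 CPM in the 3 WT cultures, 533, 1495 and 859 in Fgf23cKO, 1143 and 935 in Dmp1KO and 1859, 1818 and 1738 in Dmp1KOFgf23cKO, and passed only in Dmp1KOFgf23cKO, at 1.57 ± 0.29 (adjusted p = 0.00134) against 0.57 ± 0.32 (adjusted p = 0.308) in Dmp1KO. The difference between both, 1.00 ± 0.32 (adjusted p = 0.122), did not pass. Actn1 stood at 217, 127 and 314 CPM in the 3 WT cultures, 113, 120.4 and 245 in Fgf23cKO, 165 and 158 in Dmp1KO and 314, 223 and 228 in Dmp1KOFgf23cKO, with overlapping ranges in all genotypes, and did not pass in Dmp1KO (-0.14 ± 0.40 (adjusted p = 0.867)) or Dmp1KOFgf23cKO (0.72 ± 0.35 (adjusted p = 0.145)). In Fgf23cKO the log2 fold changes ran from -0.68 ± 0.47 for Cnn1 to 0.53 ± 0.21 for Cald1 (adjusted p = 0.106), with 1 of 9 at an unadjusted p under 0.05 and 0 called by DESeq2 as well. No member passed the test of whether the effect of the Cre allele differed between cells with and without Dmp1, with 0 of 9 called for this interaction in edgeR and in DESeq2 beside 3.84% of all genes, and 1 at an unadjusted p under 0.05.

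Several osteoprogenitor-like sums were carried by a few deep cells in which macrophage or adipocyte markers took 1% or more of the UMIs. Such cells held 59.9% of the UMIs in WT replicate 2 (6 cells), 46.8% in WT replicate 3 (7 cells) and, for WT replicate 1, 12.2% with macrophage and 24.4% with adipocyte markers (1 cell each). The shares were 29.8% and 10.7% in the Dmp1KO cultures and 0.856%, 0.885% and 15.5% in Dmp1KOFgf23cKO. In Fgf23cKO they were 27.1% with macrophage and 5.62% with adipocyte markers in replicate 1, 0% in replicate 2 and 22.9% in replicate 3. The macrophage markers summed to 6158 to 18283 CPM in WT, 2157 to 9383 in Fgf23cKO, 4338 to 11987 in Dmp1KO and 2072 to 6956 in Dmp1KOFgf23cKO. Without these cells the members took 1.90%, 1.78% and 1.25% of UMIs in WT, in place of 1.32%, 1.00% and 0.960%, against 1.78% and 1.72% in Dmp1KO (1.55% and 1.71% with them) and 2.07%, 1.85% and 1.96% in Dmp1KOFgf23cKO (2.06%, 1.85% and 1.74% with them). In Fgf23cKO the members took 0.885%, 1.22% and 1.14% without these cells (0.731%, 1.22% and 0.916% with them).

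When the test was run again without them, a choice made after seeing the data, 3 members remained higher in Dmp1KO than in WT, beside 11.4% of 3512 genes. They were Acta2 at a log2 fold change of 1.17 (adjusted p = 0.0642), Tpm2 at 0.93 (0.0224) and Cnn1 at 1.52 (0.0595). Tagln, at 0.55 (adjusted p = 0.311), Myl9, at 0.61 (0.177), and Cald1, at 0.24 (0.551), no longer passed. In Dmp1KOFgf23cKO 5 members remained, beside 19.4% of genes, namely Tagln at 1.08 (adjusted p = 0.0116), Tpm2 at 1.00 (0.00498), Cald1 at 0.89 (0.00283), Palld at 0.95 (0.0141) and Cnn1 at 1.34 (0.0613). On that basis Tpm2 stood at 1795, 2255 and 1178 CPM in WT, 2425 and 2701 in Dmp1KO and 2469.8, 2420 and 2393 in Dmp1KOFgf23cKO, and Tagln at 3671, 3006 and 1767, 3002 and 3492 and 4757, 3148 and 4773, so that WT replicates 1 and 2 moved into the range of the cultures without Dmp1 for Tagln. With cells thinned to 1300 UMIs, 629 genes and 7 members could be tested. In Dmp1KO 2 members passed (Acta2 at 1.21 and Myl9 at 0.90, adjusted p = 0.0285 and 0.0691) beside 20.3% of genes, and in Dmp1KOFgf23cKO 3 passed (Tpm2 at 0.57, Cald1 at 0.63 and Tpm1 at -0.63, adjusted p = 0.0793, 0.0341 and 0.0939) beside 37.8%, shares near the background. Of the 6 members that passed in Dmp1KO, 1 did without Dmp1KO replicate 3, and 3 did without WT replicate 2 or without WT replicate 3. Tpm2 and Cald1 in Dmp1KOFgf23cKO passed under all 24 alternatives run. For the counts in this paragraph with a single culture left out, the share of all genes that passed is not given. Such counts show only how far the calls hang on single cultures. In Fgf23cKO 3 members passed without Fgf23cKO replicate 1, and 1 without Dmp1KO replicate 2 or 3. The difference in Cald1 between Dmp1KOFgf23cKO and Dmp1KO did not pass with scaling by total UMIs alone (0.69, adjusted p = 0.124), without Dmp1KO replicate 2 or 3 or without Dmp1KOFgf23cKO replicate 1 or 2.

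In osteoprogenitor-like cells 12.9% of all genes passed in Dmp1KO compared with WT, 17.2% in Fgf23cKO and 33.9% in Dmp1KOFgf23cKO. Other genes of the contractile apparatus passed at about these rates, so their counts are no result about the list. Of 24 other contractile and stress fiber genes, 20 were tested in osteoprogenitor-like cells. In Dmp1KO compared with WT 2 were higher and 1 lower, with a median log2 fold change of 0.46. They were the LIM protein genes Csrp2, at 2.10, and Csrp1, at 1.47, and the adhesion protein gene Lpp, at -1.16. In Dmp1KOFgf23cKO 7 were higher and 0 lower, with a median of 0.41: Csrp2 (1.75), Csrp1 (1.76), leiomodin Lmod1 (1.35), filamin Flna (0.82), Cnn2 (0.75), Cnn3 (0.82) and Tagln2 (1.14). In Fgf23cKO Csrp2 was higher (1.06) and the light chain kinase Mylk (-1.31), Lpp (-1.11) and Fhl2 (-2.02) were lower. Actg2 did not pass in Dmp1KO, at 1.24 ± 0.49 (adjusted p = 0.133). Of the 12 nonmuscle cytoskeleton genes, a list that marks no smooth muscle program, 5 were higher and 1 lower in Dmp1KO (median 0.55). In Dmp1KOFgf23cKO 10 were higher (median 0.80), and both counts lie above the shares of all genes. Cytoplasmic actin Actg1 was higher by 1.52 and 1.44, cofilin Cfl1 by 1.01 and 1.02 and Myl6 by 0.90 and 0.80, while Actb, at -0.05 and 0.21, did not pass. These lists were tested on the TMM scale with all osteoprogenitor-like cells, including those with macrophage RNA, and macrophages express the nonmuscle genes.

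Among 21 regulators, 12 were tested, and 1 was higher in Dmp1KO, 1 higher in Fgf23cKO and 5 higher and 2 lower in Dmp1KOFgf23cKO, including 1 gene that is not reported here. In Dmp1KOFgf23cKO the coactivator genes Wwtr1 (1.37) and Yap1 (1.28), Rock1 (0.86) and Tgfb3 (0.97) were higher, and Tead1 (-1.09) and Tgfbr1 (-1.40) lower. Target genes of the same pathways outside the contractile apparatus did not move as a group. Of 9 tested, 1 was lower in Dmp1KO (Tnc, -2.14, median over the list -0.64), while Postn (2.27) and Lox (0.97) were higher and Tnc (-1.93) and Ccn1 (-3.08) lower in Fgf23cKO. In Dmp1KOFgf23cKO Postn (2.58), Lox (0.98) and Fn1 (1.62) were higher and Itga5 (-2.65) and Ccn1 (-2.31) lower, with a median of -0.35.

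In fibroblastic stroma-like cells, the class with the deepest cells of the 4, no member passed between genotypes in edgeR, with 0 of 9 in all 5 comparisons over 11665 genes. The background was 12.1% of genes in Dmp1KO compared with WT, 11.7% in Fgf23cKO, 15.8% in Dmp1KOFgf23cKO, 0.952% in Dmp1KOFgf23cKO compared with Dmp1KO and 6.22% for the interaction. At an unadjusted p under 0.05 there were 1, 0, 1, 0 and 1 members in the 5 comparisons, respectively. DESeq2 called 1 member in Dmp1KOFgf23cKO compared with WT and 0 in the other 4. Tagln stood at 1516, 1081 and 668 CPM in the 3 WT cultures, 1125, 1449 and 648 in Fgf23cKO, 1368 and 1333 in Dmp1KO and 1347, 1332 and 1689 in Dmp1KOFgf23cKO, and Acta2 at 1690, 1806 and 962 CPM in the 3 WT cultures, 992, 2206 and 1201 in Fgf23cKO, 1486 and 1433 in Dmp1KO and 1741, 994 and 2023 in Dmp1KOFgf23cKO, with overlapping ranges. Tpm2 stood at 752, 631 and 479 CPM in the 3 WT cultures, 512, 934 and 687 in Fgf23cKO, 935 and 834 in Dmp1KO and 907, 686 and 1001 in Dmp1KOFgf23cKO. Of the 5 cultures without Dmp1, 4 lay above all WT cultures. The nearest values to the threshold were Myl9 in Dmp1KOFgf23cKO, at 0.70 ± 0.26 (adjusted p = 0.106), and Actn1 in Dmp1KO, at -0.42 ± 0.16 (adjusted p = 0.133). For Acta2 in Dmp1KO, where the osteoprogenitor-like value was 1.64 ± 0.38, the fibroblastic stroma-like value was -0.01 ± 0.36, and whether the 2 classes differ was not tested. Of 23 other contractile genes tested, 1 passed in Dmp1KO compared with WT, again Csrp2 at 0.99.

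**Figure D4:**
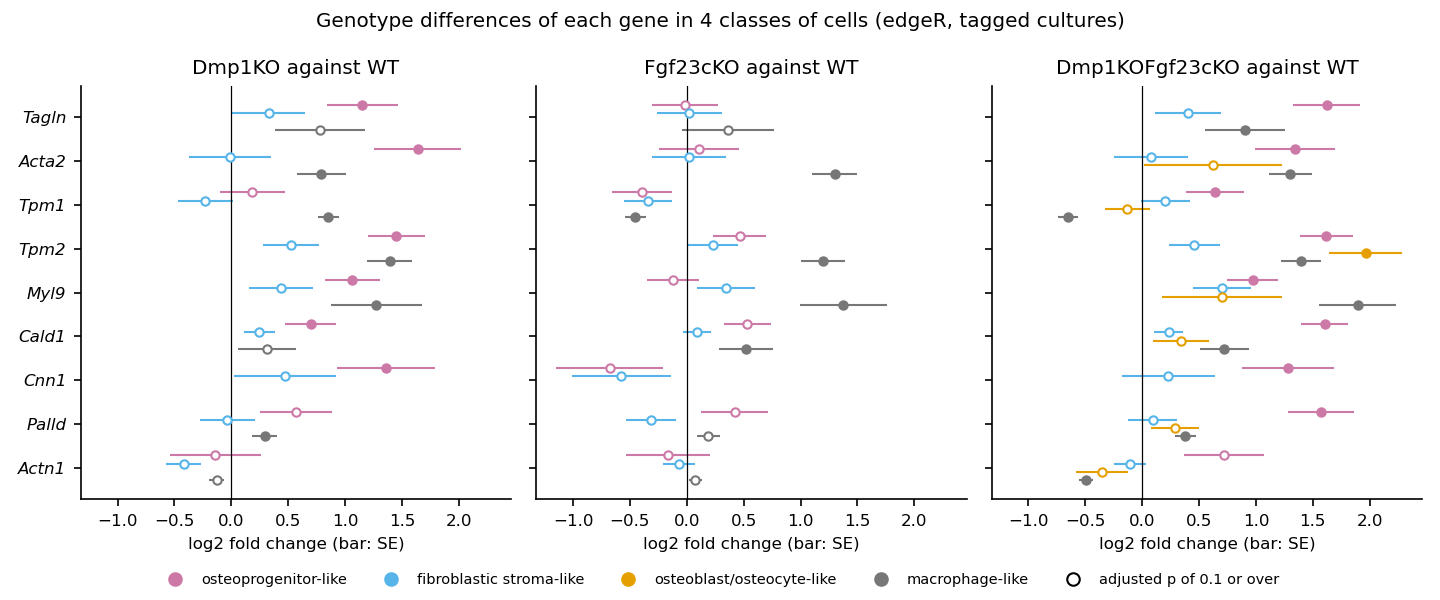
Log2 fold change of each member against WT in the 3 other genotypes and 4 classes of cells, with its standard error; filled points have an adjusted p under 0.1 (edgeR, TMM scale). Osteoprogenitor-like cells hold 6 filled points in Dmp1KO and 8 in Dmp1KOFgf23cKO, and fibroblastic stroma-like cells hold none.

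In osteoblast/osteocyte-like cells only Dmp1KOFgf23cKO and WT had enough cultures for a comparison, with 10 to 58 cells in each. Tpm2 was the 1 member of 7 tested that passed, beside 13.6% of 8583 genes. It stood at 28.0, 20.7 and 39.6 CPM in WT, 30.2 in 1 Fgf23cKO culture and 81.4, 148 and 175 in Dmp1KOFgf23cKO, without overlap, with a log2 fold change of 1.96 ± 0.32 (adjusted p = 0.00483). Tpm1 stood at 1194, 1281 and 1477 CPM in WT and 1463, 1583 and 884 in Dmp1KOFgf23cKO and did not pass (-0.13 ± 0.20 (adjusted p = 0.753)). Tagln was too low to be tested and stood at 0, 5.17 and 6.86 CPM in WT and 5.23, 51.8 and 150.3 in Dmp1KOFgf23cKO. Acta2 stood at 56.1, 0 and 77.0 and 28.4, 112 and 113 CPM, respectively, with overlapping ranges.

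Macrophage-like cells made up 44.5% of all cells and were used as a class that should lack smooth muscle genes. Their level of each member was set against the stromal level of the same culture, beside 4 matrix genes that macrophages do not make, whose RNA can reach any droplet as free RNA. The matrix genes stood at 0.437% (Col1a1), 0.347% (Col1a2), 0.663% (Col3a1) and 0.464% (Sparc) of their stromal level, as the median over 11 cultures. Tagln (0.635%) and Cald1 (0.613%) lay no higher than the highest of these over all cultures. In the WT cultures alone the matrix genes had medians of 0.228% to 0.280%, and Tagln, at 0.779% (0.148 to 1.02), and Cald1, at 0.613% (0.333 to 0.892), had higher medians. Myl9 (0.858%), Acta2 (0.976%), Cnn1 (1.17%) and Tpm2 (1.23%) lay somewhat higher, and the part of free RNA in these 6 genes was not tested. Tpm1 stood at 4.22% (1.92 to 6.47 over cultures), Palld at 8.58% (5.21 to 12.6) and Actn1 at 36.0% (23.5 to 46.4), above the matrix genes. Actn1 in macrophage-like cells was thus within reach of its stromal level, and osteoclast-like cells of the 3 WT cultures held more of it, with a median of 2.35 times the macrophage-like level of their culture, and 2.87 times for Tpm1.

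Between genotypes, Tpm1 in macrophage-like cells stood at 73.0, 72.4 and 67.4 CPM in the 3 WT cultures, 48.1, 50.2 and 59.5 in Fgf23cKO, 126 and 108 in Dmp1KO and 46.8, 42.5 and 51.6 in Dmp1KOFgf23cKO, so that Dmp1KO lay above and both genotypes with the Cre lay below WT, without overlap. The log2 fold changes against WT were 0.85 ± 0.09 (adjusted p = 6.14e-07) in Dmp1KO, -0.45 ± 0.09 (adjusted p = 0.000884) in Fgf23cKO and -0.66 ± 0.09 (adjusted p = 1.06e-05) in Dmp1KOFgf23cKO, and -1.51 ± 0.09 (adjusted p = 9.39e-10) in Dmp1KOFgf23cKO compared with Dmp1KO. Col1a1 in these cells stood at 53.2 to 58.3 CPM in WT, 74.5 to 75.9 in Fgf23cKO, 12.5 to 12.6 in Dmp1KO and 140 to 143 in Dmp1KOFgf23cKO. As a percent of its stromal level, Col1a1 stood at 0.214 to 0.303 in WT and 0.437 to 1.17 in Fgf23cKO. The percent was 0.220 to 0.274 in Dmp1KO and 0.602 to 0.889 in Dmp1KOFgf23cKO. The part of free RNA in the Tpm1 differences was not tested. Actn1 stood at 114, 108 and 103 CPM in the 3 WT cultures, 114, 111 and 123 in Fgf23cKO, 94.4 and 86.8 in Dmp1KO and 80.7, 77.7 and 81.0 in Dmp1KOFgf23cKO, lowest in Dmp1KOFgf23cKO (-0.50 ± 0.06 (adjusted p = 2.36e-06)). Many genes passed between the genotypes in this class: 5 of 8 tested members passed in Dmp1KO compared with WT beside 61.0% of 13075 genes, 5 in Fgf23cKO beside 47.7%, 8 in Dmp1KOFgf23cKO beside 56.3%, 4 in Dmp1KOFgf23cKO compared with Dmp1KO beside 52.3% and 4 for the interaction beside 51.7%. In Dmp1KOFgf23cKO compared with Dmp1KO 2 passed without Dmp1KOFgf23cKO replicate 1, a refit for which the share of all genes is not given. Acta2, for example, stood at 4.34, 6.75 and 4.33 CPM in the 3 WT cultures, 13.9, 12.6 and 13.6 in Fgf23cKO, 8.40 and 8.49 in Dmp1KO and 17.2, 11.4 and 11.8 in Dmp1KOFgf23cKO, with the log2 fold changes of 0.79 ± 0.22, 1.30 ± 0.20 and 1.30 ± 0.19. The median depth of these cells was 7197 to 7513 UMIs in WT cultures, 33904 to 37932 in Fgf23cKO, 18490 to 20371 in Dmp1KO and 34428 to 35708 in Dmp1KOFgf23cKO. With all cells at 1300 UMIs, Tpm1 kept its direction, at 0.50, -0.98 and -0.86 against WT, and 1, 1 and 3 of 6 members passed beside 34.7%, 18.5% and 29.7% of 8490 genes. In Dmp1KO, 13 of 18 other contractile genes tested were higher and 3 lower, and 9 of 12 nonmuscle genes were higher and 2 lower, with the highest genes including Flna (0.81), Vcl (0.85), Tagln2 (1.45), Cnn2 (1.60) and Actg1 (1.23). The choice of clusters matters here. Of the cells with macrophage markers, 3 clusters that were left out of the class, led by Itgax, Cd74 and Cdkn1c, held 1200, 1037 and 976 Dmp1KO cells of 1255, 1167 and 1247 in all, against 1514 Dmp1KO cells in the class, so that the class held a smaller share of these cells in Dmp1KO than in the other genotypes. With all 8 clusters that hold macrophage markers, chosen after seeing the data, Tpm1 was at 1.38 in Dmp1KO and at -0.13 (adjusted p = 0.287) in Fgf23cKO.

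**Figure D5:**
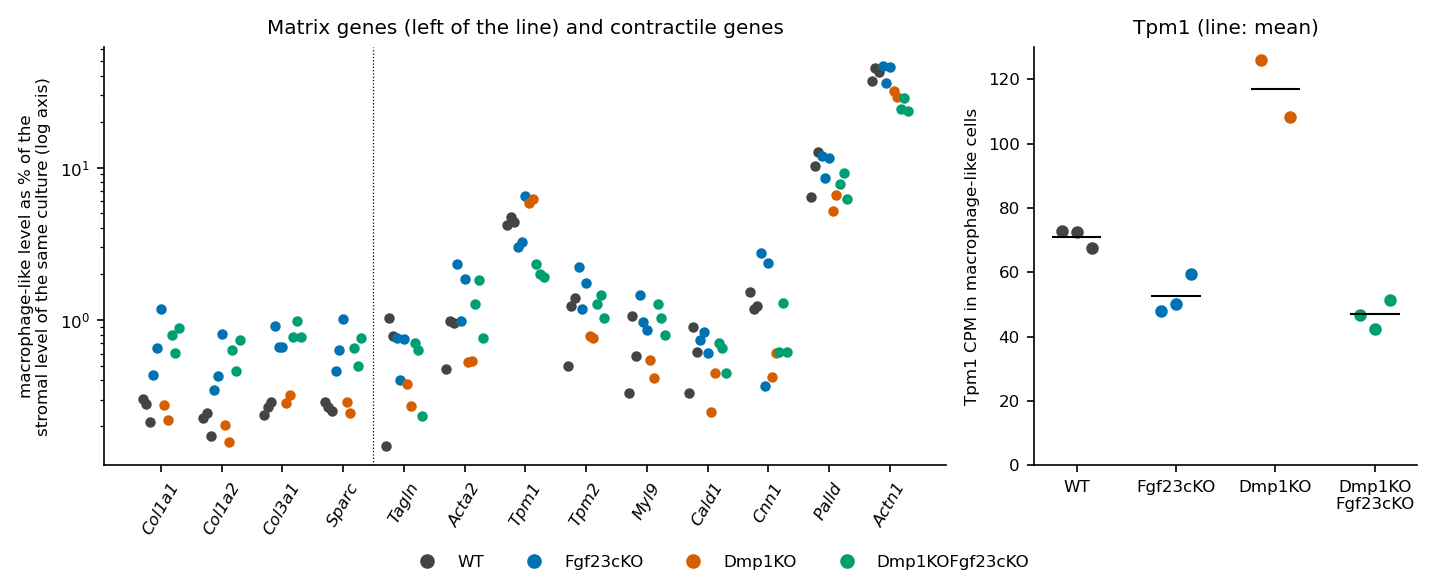
Left, level in macrophage-like cells as a percent of the stromal level of the same culture (log axis) for 4 matrix genes and the 9 members, 1 point for each of 11 cultures; right, Tpm1 in macrophage-like cells (CPM) by genotype with the mean as a line. Actn1, Palld and Tpm1 lie above the matrix genes, and Tpm1 is highest in Dmp1KO.

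Over all cells of a culture, the summed level of the members ranged from 602 to 1947 CPM (median 1213), and here fewer cells of a type and less RNA per cell cannot be told apart. Tagln stood at 144, 41.5 and 53.2 CPM in the 3 WT cultures, 176, 166 and 70.2 in Fgf23cKO, 47.9 and 76.5 in Dmp1KO and 183, 183 and 271 in Dmp1KOFgf23cKO, and Acta2 at 156, 62.4 and 76.5 CPM in the 3 WT cultures, 158, 254 and 121 in Fgf23cKO, 52.7 and 86.1 in Dmp1KO and 214, 142 and 292 in Dmp1KOFgf23cKO. The Dmp1KO cultures, which were above WT in osteoprogenitor-like cells, did not exceed the highest WT culture over all cells. Of the 9 members 1 passed in Dmp1KO compared with WT beside 64.5% of 15502 genes, 3 in Fgf23cKO beside 45.1%, 8 in Dmp1KOFgf23cKO beside 51.8%, 8 in Dmp1KOFgf23cKO compared with Dmp1KO beside 62.7% and 2 for the interaction beside 55.4%. The 1 in Dmp1KO was Actn1, at 0.17 ± 0.07 (adjusted p = 0.0674), which did not pass without WT replicate 3 or Dmp1KO replicate 2 and stood at -0.14 (adjusted p = 0.15) with scaling by total UMIs alone. The 8 in Dmp1KOFgf23cKO left out only Tpm1, with Actn1 lower and the other 7 higher than in WT. Fibroblastic stroma-like cells, which held most UMIs of the members, numbered 14 to 43 in a culture, and their part in these counts was not tested. Counts in Fgf23cKO ranged from 1 to 7 when single cultures were left out: 7 without WT replicate 1, 6 without Fgf23cKO replicate 3 and 1 without WT replicate 2, WT replicate 3, Fgf23cKO replicate 1 or Fgf23cKO replicate 2. Without WT replicate 3, 5 passed in Dmp1KOFgf23cKO. The share of all genes that passed in these refits is not given here. The counts therefore show only how far the calls hang on single cultures.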

How the data were processed

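The deposited files hold raw counts of UMIs for each gene and cell barcode of 15 samples, which the authors made with Cell Ranger 7.0.1 on the mouse build mm10, in 2 passes with tag demultiplexing in between, and from which they removed multiplets by tag. No doublet caller was run here. Cells were kept as deposited, and 1946 of 17793 fell under 500 genes or at or above 20% mitochondrial UMIs. Cells were normalised with sctransform 0.4.2 and clustered with Seurat 5.3.0 (3000 variable genes, 30 principal components, resolution 0.8, 20 clusters), and clusters were named from marker lists. The members, marker lists and gene lists were chosen with earlier results of these data known.

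UMIs were summed by tagged culture and class where at least 10 cells were present, and levels are CPM of these sums. Total counts per sample ran from 3.56e+06 to 7.25e+07 UMIs, and intervals were not drawn. Sums of a class were smaller. The osteoprogenitor-like sum of WT replicate 2, for example, held 63118 UMIs, so that 3 UMIs stand at 47.5 CPM. Counting therefore adds to the spread between cultures at low levels, such as Cnn1 with 2 UMIs in that sum. Genotypes were compared with edgeR 4.0.16 (TMM factors, filterByExpr, quasi-likelihood test) in R 4.3.3, fitted over all 4 genotypes, with Benjamini-Hochberg adjustment over all genes tested and a threshold of 0.1. The text names all 9 members, the genes of each list that passed (at most 10 in a comparison, by adjusted p, and apart from 1 regulator gene whose result is not reported here) and the 10 genes most like the members; Actg2 and Actb, which did not pass, were named after their values were seen. The alternatives were DESeq2 1.42.0, RLE size factors, no filter on counts, at least 20 cells for a sum, a filter on cells, a replicate block, untagged samples added, each culture left out, scaling by total UMIs alone, cells thinned to 1300 UMIs and clustering without contractile genes. In simulated counts for Dmp1KO compared with WT (200 of 4845 genes changed 4-fold in osteoprogenitor-like cells, 5 draws) the test recovered 47.8% of changed genes with 9.73% false calls, and for macrophage-like cells (200 of 13075 genes) 92.8% with 11.1% false calls. Changes were drawn in random direction around 1 common profile. Smaller folds and a shift between scalings were not simulated, and the highest member fold in osteoprogenitor-like cells of Dmp1KO was 3.11 (Acta2). Dmp1KO replicate 1 was not used here. The sources used here give no version of Seurat in the submitters' processing notes and no annotation release; gene positions come from GENCODE on GRCm38.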

Additional observations from a re-analysis of the deposited data

Results flagged for a closer look

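In 125 groups of 4 samples (3 cultures and the untagged sample of a genotype, for a member in a class) 4 samples stood apart from the other 3 by Dixon's test, where chance gives about 1 in 20 groups. Actn1 in osteoprogenitor-like cells was high in Dmp1KOFgf23cKO replicate 1, at 314 CPM against 223 to 228 in the others. Acta2 in osteoblast/osteocyte-like cells was low in the same culture, at 28.4 CPM against 112 to 126. Cnn1 in osteoblast/osteocyte-like cells stood at 0.648 CPM in Dmp1KOFgf23cKO replicate 2, from 2 UMIs, against 0 in the others, and in macrophage-like cells at 0.101 CPM in Fgf23cKO replicate 2, from 1 UMI, against 0.405 to 0.434.

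The difference that the Cre allele made was not the same in cells with and without Dmp1 for 6 combinations of member and class, by the interaction term of the edgeR fit with Benjamini-Hochberg adjustment. In macrophage-like cells it was -1.19 on the log2 scale for Tpm2 (SE 0.25, adjusted p = 0.000783), -1.06 for Tpm1 (SE 0.13, adjusted p = 4.58e-06), -0.44 for Actn1 (SE 0.09, adjusted p = 0.000494) and -0.79 for Acta2 (SE 0.27, adjusted p = 0.0235), beside 51.7% of all genes that passed. Over all cells it was 0.62 for Palld (SE 0.26, adjusted p = 0.0702) and -0.46 for Actn1 (SE 0.1, adjusted p = 0.00311), beside 55.4% of all genes. For Tpm1 in macrophage-like cells, the interaction was at -0.38 (adjusted p = 0.56) with thinned cells and at -1.62 with all 8 clusters that hold macrophage markers. Other cytoskeletal genes of these cells also had negative interactions, among them Flna (-1.25), Vcl (-1.25), Tagln2 (-1.63), Cnn2 (-1.55) and Actg1 (-1.47). The 4 genotypes were 4 droplet reactions, and these terms cannot be told apart from the reactions. Median depth and the Col1a1 level of macrophage-like cells also differed between the reactions.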

How the results depend on the processing

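Of 470 recounts of members called under alternatives 372 stayed within 1.5 times the count and 98 moved, and of 1409 fold changes 1230 kept their direction and side of the threshold, 175 lost the call and 4 reversed; the cause was not tested. All 72 median levels by class moved by less than 1 SD. The recounts of members here and below are given without the share of all genes that passed in the same refit. They describe how the calls depend on the setting and are no result about the members against other genes. The reversals were Tpm1 in osteoprogenitor-like cells of Dmp1KOFgf23cKO, at -0.63 with thinned cells and -0.02 in cells low in macrophage and adipocyte markers, and Actn1 over all cells with scaling by total UMIs alone, at -0.14 in Dmp1KO against WT and 0.01 in Dmp1KOFgf23cKO against Dmp1KO. Thinning took the most calls (25 of 56 fold changes), followed by adding untagged samples (17 of 64). RLE size factors shifted the osteoprogenitor-like fold changes of Dmp1KOFgf23cKO against WT by -0.13, and scaling by total UMIs alone, added after seeing the data, shifted the median of all genes there by -0.62, in Dmp1KO by -0.39 and in Fgf23cKO by -0.38. With it the higher share of called genes went from 57.1% to 24.9% in osteoprogenitor-like cells of Fgf23cKO, from 48.0% to 64.2% in osteoblast/osteocyte-like cells, from 52.2% to 39.1% in macrophage-like cells of Dmp1KO and from 50.4% to 26.8% over all its cells. In Dmp1KOFgf23cKO against Dmp1KO it went from 72.1% to 52.4%, 45.6% to 69.2% and 43.4% to 76.4% in osteoprogenitor-like, macrophage-like and all cells, and for the interaction from 46.3% to 62.4% in macrophage-like and 46.2% to 71.0% in all cells. The members called with it were 3, 1, 4 and 0 (main 6, 0, 8 and 1) in osteoprogenitor-like cells, 1 in fibroblastic stroma-like Dmp1KOFgf23cKO (main 0) and 2 over all cells of Dmp1KO (main 1).

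In osteoprogenitor-like cells, members called against WT in Dmp1KO (6) were 2 thinned and 3 under low macrophage and adipocyte markers (1 to 6 with single cultures left out). In Fgf23cKO (0) they were 1 with untagged samples, no filter, a filter on cells, clustering without contractile genes or either marker limit and 2 thinned (0 to 3). In Dmp1KOFgf23cKO (8) they were 3 thinned and 5 under both limits. In Dmp1KOFgf23cKO against Dmp1KO (1) they were 3 with untagged samples, 2 with no filter or at least 20 cells, and 0 thinned, clustered without contractile genes or under the macrophage limit (0 to 2), and the interaction (0) gave 1 thinned. In fibroblastic stroma-like cells all main counts were 0; Dmp1KO gave 2 with no filter and 1 with at least 20 cells or either limit (0 to 1, 1 without WT replicate 3), Fgf23cKO 0 to 1 (1 without its replicate 2), Dmp1KOFgf23cKO 3 with untagged samples or no filter and 1 with DESeq2, at least 20 cells, thinning or either limit (0 to 1, 1 without WT replicate 1 or Fgf23cKO replicate 1 or 2), and the interaction 2 with untagged samples and 1 with no filter. In osteoblast/osteocyte-like cells (1) the counts were 2, 3 and 0 with untagged samples, no filter and thinning (1 to 2, 2 without Dmp1KOFgf23cKO replicate 1). In macrophage-like cells thinning gave 1, 1, 3, 1 and 0 in place of 5, 5, 8, 4 and 4, and clustering without contractile genes gave 2 of the 4 in Dmp1KOFgf23cKO against Dmp1KO (2 to 4). Over all cells, Dmp1KO (1) gave 0 at an adjusted p under 0.05, with untagged samples or with the replicate block and 5 thinned (0 to 2). Fgf23cKO (3) gave 1, 0, 5 and 6 at 0.05, with untagged samples, with no filter and thinned (1 to 7). Dmp1KOFgf23cKO (8) gave 5 (5 to 9) and its comparison with Dmp1KO (8) gave 2 (4 to 8) with untagged samples. The interaction (2) gave 1 at 0.05, with untagged samples, the replicate block or no filter, and 4 thinned (1 to 3; 1 without WT replicate 1 or 3, Fgf23cKO replicate 3, either Dmp1KO culture or Dmp1KOFgf23cKO replicate 1 or 3).

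Samples with the same number did not deviate together (r -0.27 to 0.27 over 15 pairs, 4 over 0.1), so numbers do not pair cultures. In osteoprogenitor-like cells the replicate block gave 5, 0, 8, 1 and 0 members in the 5 comparisons in place of 6, 0, 8, 1 and 0. The 18 to 65 shallow osteoprogenitor-like cells of a culture limit what can be detected there, and Dmp1KO had 2 cultures.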

Other observations

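The untagged samples, 1 for each genotype, give levels that the main tests do not use. They did enter the alternative with untagged samples added and Dixon's test above. In their osteoprogenitor-like cells (43 in WT, 106 in Fgf23cKO, 140 in Dmp1KO and 42 in Dmp1KOFgf23cKO) Tagln stood at 2246, 2616, 2501 and 3276 CPM and Acta2 at 2295, 2718, 1780 and 3075 CPM, in the order WT, Fgf23cKO, Dmp1KO and Dmp1KOFgf23cKO. Tpm2 stood at 1031, 1768, 1736 and 2295 CPM and Cald1 at 2381, 2266, 1839 and 3451 CPM. Dmp1KOFgf23cKO was the highest untagged sample for all 4 genes. The untagged Dmp1KO sample was the lowest of the 4 for Acta2 and Cald1, while for Acta2 the tagged Dmp1KO cultures, at 2774 and 4016 CPM, held the highest mean. All 9 genes together stood at 13697, 13101, 11356 and 18459 CPM in the untagged samples. In macrophage-like cells Tpm1 stood at 62.7, 54.6, 131 and 44.6 CPM in the untagged samples, in the same order of genotypes as in the tagged cultures.

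In macrophage-like cells another tropomyosin gene, Tpm4, stood beside Tpm1 in direction, with log2 fold changes against WT of 0.24 in Dmp1KO, -0.33 in Fgf23cKO and -0.49 in Dmp1KOFgf23cKO. In osteoprogenitor-like cells the matrix genes Sparc, Col1a2 and Col3a1 were also higher in Dmp1KOFgf23cKO than in WT, by 2.12, 1.58 and 1.15 on the log2 scale.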
